A study of Mus musculus with 2 samples.

Results

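The 6 genes Saa3, Hp, Lcn2, Lrg1, Slpi and Dmkn encode secreted proteins of the acute phase and of innate defense. They were chosen by name, with their levels in these data already known, from 23946 genes counted in at least 1 of the scRNA-Seq libraries, and all 6 were present in both. Their levels and ratios are therefore given as a description, and no test is made on them. The question was which leukocytes of the heart held these transcripts 24 hours after vehicle or a high dose of isoproterenol (ISO), and whether monocytes, macrophages and neutrophils held the same ones.

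The acute-phase response is the change in secreted proteins that follows tissue injury or infection. Most acute-phase proteins in plasma are made by hepatocytes under the control of IL-6 and IL-1, which act largely through STAT3, NF-κB and the C/EBP transcription factors. Myeloid cells make a local version of the same response, and neutrophils store several of these proteins in granules. Saa3 is an isoform of serum amyloid A made mainly outside the liver. Hp encodes haptoglobin, which binds free hemoglobin so that it can be cleared through the receptor CD163. Lrg1 encodes leucine-rich alpha-2-glycoprotein 1, a plasma protein that modulates TGF-β signaling. Lcn2 encodes lipocalin 2, which withholds iron from bacteria by binding their siderophores. Slpi encodes secretory leukocyte protease inhibitor, which blocks neutrophil elastase and cathepsin G. Dmkn encodes dermokine, a secreted protein first described in skin epithelium.

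On GRCm38, Saa3 lies at chr7:46711998-46715700, Hp at chr8:109575128-109579172, Lcn2 at chr2:32384633-32388252, Lrg1 at chr17:56119678-56122001, Slpi at chr2:164354070-164389095 and Dmkn at chr7:30763756-30781063. Only Dmkn is on the plus strand.

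Both groups were adult female wild-type C57BL6 mice. The TTS group, named after takotsubo syndrome, received 200 mg/kg ISO intraperitoneally, and the Control group received the vehicle. The deposited descriptions give the ISO dose for both samples, so Control was taken from its title and from the methods. Hearts of 3 mice were pooled per group at 24 hours, live CD45+ cells were sorted, and 15000 cells were loaded for 1 library per group. Differences between mice could therefore not be measured, and no difference between the libraries has a replicate check.

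The Control library held 47382455 unique molecular identifiers (UMIs) in 5927 barcodes and the TTS library 58495112 in 5514. After filtering, 5641 Control and 5437 TTS cells remained, with median depths of 4790 and 8537 UMIs, and 15 of their barcode sequences occurred in both libraries. Cells were placed in classes by the relative score of marker genes that did not include the 6 genes, and a cell entered a class only where exactly 1 lineage reached the limit of 0.4. Monocyte, macrophage, Arg1 macrophage and dendritic cell scores counted as 1 lineage, in which the highest score set the class. The monocyte-like and macrophage-like classes were therefore not exclusive in their markers, and a cell could pass the limit for both. Of the kept cells, 425 in Control and 377 in TTS had their highest score within 0.35 to 0.45, near that limit. Levels are UMIs per 1000000 UMIs of the class (CPM) with exact Poisson 95% intervals in brackets, shares of cells have exact Clopper-Pearson intervals, and all intervals cover counting error only. Shares of cells were taken after each cell was thinned to 1000 UMIs, which left out 14 Control and 0 TTS cells. Unthinned shares are named as such. Where a pair of levels is given for a class, the Control level comes first.

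Monocyte-like cells numbered 63 in Control and 1844 in TTS, which was 1.12% and 33.9% of the kept cells. There were 1268 and 1632 macrophage-like cells, and 126 and 71 neutrophil-like cells. In each library the 10 leading genes by fold held 3 classical monocyte markers in monocyte-like cells, among them Chil3, 4 resident macrophage markers in macrophage-like cells, among them Lyve1 and Cd163, and 5 neutrophil markers in neutrophil-like cells, among them S100a8 and S100a9. The macrophage-like class held different cells in the libraries. In Control it held 545 cells with resident markers, 2 whose highest score was for Arg1 markers and 721 others, and in TTS 183, 932 and 517. Median scores in the monocyte-like cells were 0.22 in Control and 0.30 in TTS for macrophage markers, and in TTS macrophage-like cells the classical monocyte score was 0.44. In the TTS cells with the highest score for Arg1 markers the classical monocyte score was 0.49. Of the 1844 TTS monocyte-like cells, 440 had an Arg1 marker score of 0.4 to 0.6 and 118 a score of 0.6 or more. A further 154 Control and 577 TTS barcodes reached the limit for both neutrophil and mononuclear phagocyte markers. They are described separately, as these barcodes may hold more than 1 cell. Lymphocyte-like cells, which should lack the 6 transcripts, served as the background for free RNA. They were 2397 cells in Control but only 185 in TTS, with median depths of 3529 and 3620 UMIs.

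The table of RefSeq start sites used here held 5 of the 6 genes, all but Hp. The upstream sequences are shown because C/EBP factors are classical regulators of acute-phase genes. Whether these factors act on the 6 genes here was not tested. The 250 bases before each start were searched for TTGCNNAA, a core C/EBP pattern that reads TTNNGCAA on the other strand. A match was found before the starts of Saa3, Lcn2, Slpi and each of the 3 starts of Dmkn, and none was found before Lrg1. Dmkn starts 1 and 2 lie side by side and share the same match, TTAGGCAA, at 231 and 233 bases. Of 32851 mouse start sites in the same table, 9.56% have such a match in this window. The stretches before Saa3, Slpi and the most upstream start of Dmkn follow, 5′ to 3′ on the strand of the gene, with annotated exons left out and the C/EBP match in capitals. They are chr7:46715701-46715926 on the minus strand, chr2:164356508-164356757 on the minus strand and chr7:30763506-30763755 on the plus strand of GRCm38.p6.
Saa3: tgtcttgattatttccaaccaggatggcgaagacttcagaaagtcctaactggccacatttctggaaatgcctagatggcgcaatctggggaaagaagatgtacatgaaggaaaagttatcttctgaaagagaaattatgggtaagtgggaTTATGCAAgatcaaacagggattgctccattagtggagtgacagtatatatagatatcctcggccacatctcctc
Slpi: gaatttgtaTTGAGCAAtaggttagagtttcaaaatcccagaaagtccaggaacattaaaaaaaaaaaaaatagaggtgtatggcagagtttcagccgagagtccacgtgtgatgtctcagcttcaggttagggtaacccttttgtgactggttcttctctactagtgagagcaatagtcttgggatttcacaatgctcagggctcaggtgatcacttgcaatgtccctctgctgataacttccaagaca
Dmkn: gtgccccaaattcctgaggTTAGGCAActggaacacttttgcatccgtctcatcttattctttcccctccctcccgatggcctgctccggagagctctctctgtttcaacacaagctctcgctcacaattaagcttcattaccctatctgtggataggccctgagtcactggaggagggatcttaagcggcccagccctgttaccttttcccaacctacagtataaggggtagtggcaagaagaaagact
The Slpi stretch lies within the gene as GENCODE annotates it, in an intron of longer transcripts, while those of Saa3 and Dmkn lie outside theirs. The matches begin 99 bases before the start of Saa3, 241 before Slpi and 231 before Dmkn. The stretch before Lcn2 overlaps exons of other Lcn2 transcripts and is not shown. The NF-κB pattern matched before Lrg1 among these 5 genes, and in 4.65% of all windows. The STAT pattern TTCNNNGAA, found in 7.02% of windows, matched before none of the 5 genes. A match describes these letters and is not evidence of binding.

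Saa3 was nearly absent from Control and abundant in TTS. In all Control barcodes it had 21 UMIs, and 16 of them were in 1 resident macrophage-like cell. In TTS it had 20903. In monocyte-like cells it was 3.29 CPM (0.399 to 11.9) from 2 UMIs of 1 cell in Control and 733 CPM (720 to 746) in TTS, a ratio of 223 (61.6 to 1839). In macrophage-like cells it was 1.51 CPM (0.898 to 2.39) and 234 CPM (227 to 241). In neutrophil-like cells no UMI was found in Control, where a count of 0 allows 7.51 CPM at 3 counts, and the TTS level was 87.1 CPM (59.6 to 123). The intervals of the libraries did not overlap in any of these classes. After thinning, 25.7% of TTS monocyte-like cells had a Saa3 UMI, against 48.2% unthinned. In Control it was found in 0 of 63 cells after thinning, with an upper bound of 5.69%, and in 1 of 63 unthinned. In TTS lymphocyte-like cells these shares were 0% after thinning and 1.08% unthinned. Saa3 was also uneven between cells, since 10% of the TTS monocyte-like cells held 66.8% of its UMIs and the median cell held 0.

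Hp had a different pattern, as monocyte-like and neutrophil-like cells of the Control heart already held it. It was 497 CPM (442 to 556) in Control against 640 CPM (628 to 652) in TTS monocyte-like cells, a ratio of 1.29 (1.15 to 1.45). In neutrophil-like cells it was 1256 CPM (1149 to 1371) and 1328 CPM (1213 to 1451), and these intervals overlapped. In macrophage-like cells it was 15.4 CPM (13.2 to 17.8) in Control against 153 CPM (148 to 159) in TTS. Over all kept cells Hp was 54.0 CPM in Control and 358 CPM in TTS, a ratio of 6.62 (6.33 to 6.91). The ratio over all cells was larger than within the monocyte-like or neutrophil-like class, but smaller than the 9.96 (8.58 to 11.6) within the macrophage-like class. Monocyte-like cells were 1.12% of the Control and 33.9% of the TTS cells, and the part of cell numbers in the ratio over all cells was not tested. Hp had a UMI in 33.3% of Control and 38.2% of TTS monocyte-like cells after thinning, against 82.5% and 77.6% unthinned.

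Lrg1 was a neutrophil transcript in Control and was found in both neutrophil-like and monocyte-like cells in TTS. In neutrophil-like cells it was 370 CPM (313 to 435) in Control against 482 CPM (413 to 558) in TTS, a ratio with an interval of 1.04 to 1.63. In monocyte-like cells it had 1 UMI in Control, 1.65 CPM (0.0417 to 9.17), and reached 168 CPM (162 to 175) in TTS, a ratio of 102 (18.4 to 4044). In macrophage-like cells it was 1.94 CPM (1.23 to 2.90) and 39.5 CPM (36.7 to 42.5). The wide interval in monocyte-like cells comes from the single Control UMI.

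In TTS, Lcn2 was likewise highest in neutrophil-like, then monocyte-like, then macrophage-like cells. Neutrophil-like cells held 836 CPM (749 to 931) in Control against 2419 CPM (2263 to 2584) in TTS, a ratio of 2.89 (2.55 to 3.29). Monocyte-like cells held 4.94 CPM (1.02 to 14.4) from 3 UMIs in Control and 299 CPM (291 to 307) in TTS, a ratio of 60.5 (20.7 to 294). Macrophage-like cells held 2.52 CPM (1.70 to 3.60) and 64.6 CPM (61.0 to 68.4). In each library the neutrophil-like level was the highest of all classes and its interval did not overlap the next. Lcn2 had a UMI in 34.1% of Control and 69.0% of TTS neutrophil-like cells after thinning, and unthinned in 63 of 126 and 63 of 71 cells.

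Slpi was lower in TTS neutrophil-like cells and higher in TTS monocyte-like and macrophage-like cells. In neutrophil-like cells it was 2816 CPM (2653 to 2985) in Control against 1581 CPM (1455 to 1715) in TTS, which is 0.562 (0.507 to 0.621) of the Control level. In monocyte-like cells it was 252 CPM (213 to 295) and 870 CPM (856 to 884), a ratio of 3.46 (2.95 to 4.08). In macrophage-like cells it was 23.2 CPM (20.6 to 26.1) and 513 CPM (503 to 523), a ratio of 22.1 (19.6 to 24.98). Where barcodes of 2 lineages were kept by their highest score, the macrophage-like log2 ratio of Slpi was 2.77 in place of 4.46, and those of Hp, Lcn2 and Lrg1 were 2.26, 3.07 and 2.76 in place of 3.31, 4.65 and 4.32. The neutrophil-like difference was in the same direction in cells with few monocyte and macrophage transcripts, at 3146 CPM (2959 to 3342) in 116 Control cells and 1759 CPM (1528 to 2016) in 27 TTS cells.

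Dmkn was highest in mononuclear phagocytes. In monocyte-like cells it was 16.5 CPM (7.89 to 30.3) in Control against 320 CPM (312 to 328) in TTS, a ratio of 19.4 (10.6 to 40.6). In macrophage-like cells it was 1.01 CPM (0.522 to 1.76) and 150 CPM (144 to 155). Neutrophil-like cells had no Dmkn UMI in Control and 15 in TTS, 40.8 CPM (22.8 to 67.3). Dmkn did not pass the minimum of 20 UMIs there. TTS lymphocyte-like cells held 15.2 CPM (7.85 to 26.5), an overlapping interval, and 6 of their 12 UMIs were in 1 B cell-like cell. The part of free RNA in the neutrophil-like level was not tested. Dmkn was the most evenly spread of the genes that were low in Control monocyte-like cells, as 10% of the TTS cells held 48.0% of its UMIs. A Dmkn UMI was found in 59.4% of TTS monocyte-like cells unthinned and in 22.2% after thinning, and in TTS lymphocyte-like cells it was found in 5 of 185 and in 0.541%.

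**Figure D1:**
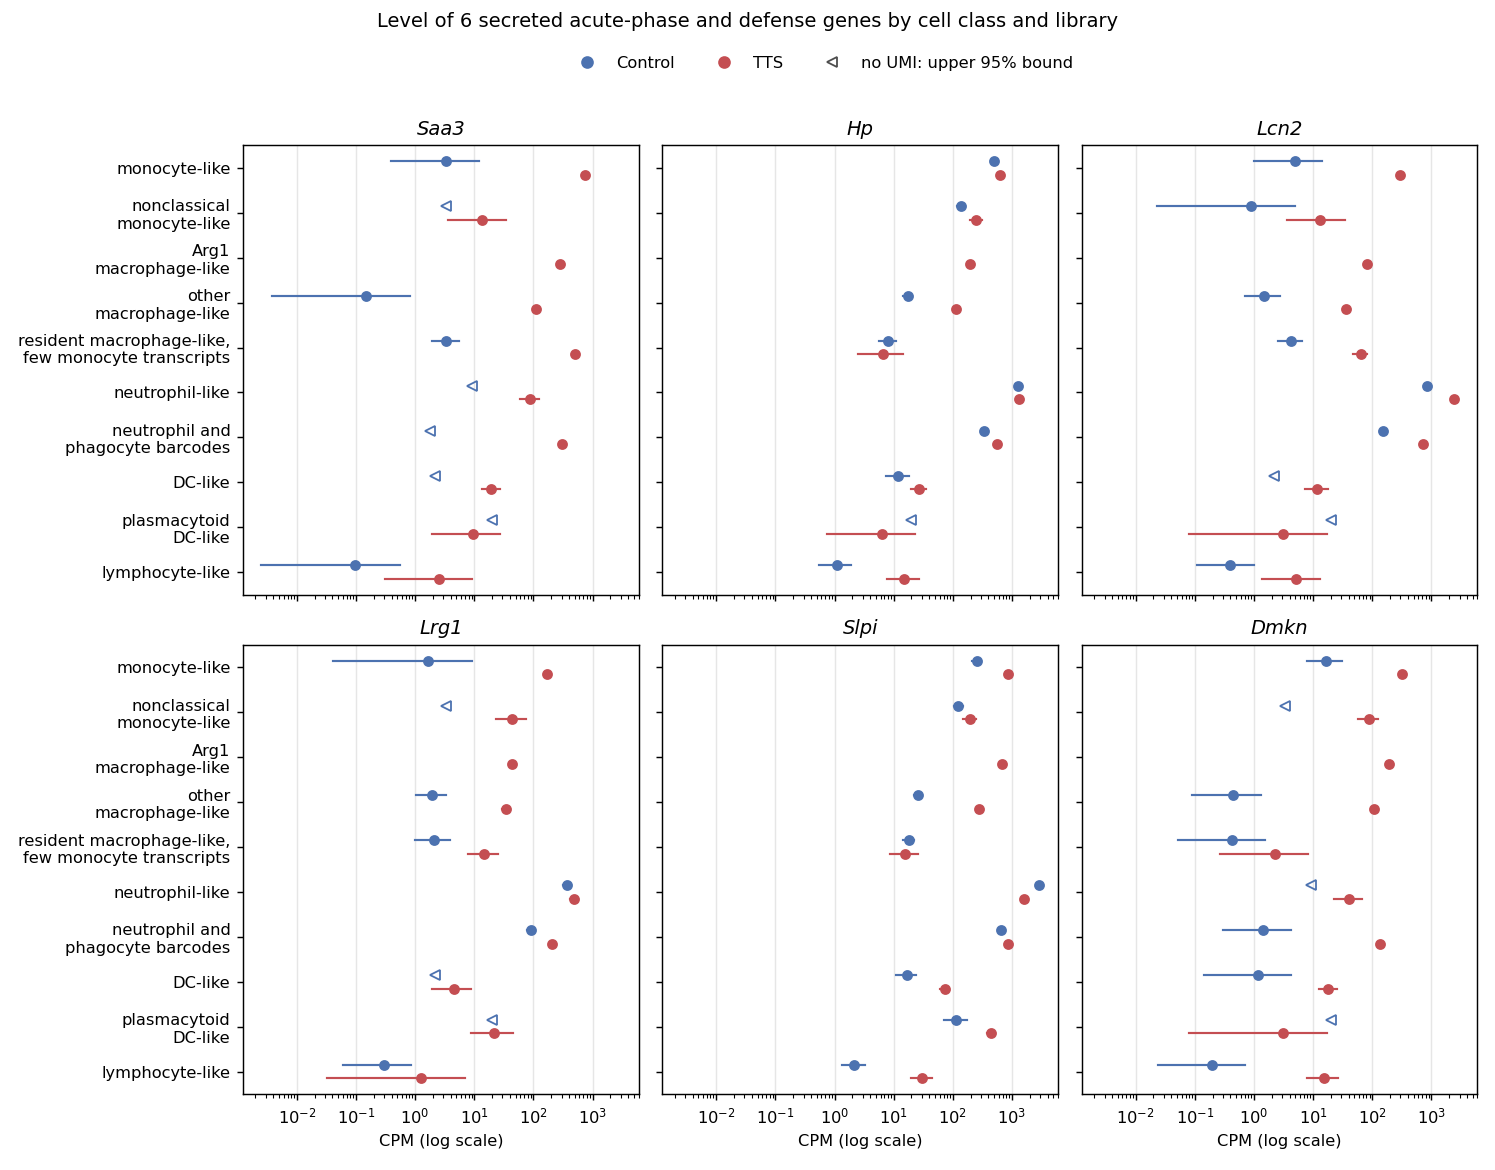
Level of each gene in CPM on a log axis, by cell class, with 1 point per library (Control or TTS) and exact Poisson 95% intervals. Open triangles stand for classes with no UMI and mark the upper 95% bound. Arg1 macrophage-like cells are shown for TTS only, since Control had 2. Hp, Lcn2, Lrg1 and Slpi are highest in neutrophil-like cells in both libraries, while Saa3 and Dmkn are highest in monocyte-like cells in TTS.

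A gene was counted as higher or lower where its ratio was at least 2-fold and it had at least 20 UMIs over both libraries. Of the 6 genes, 5 were higher in TTS monocyte-like cells, all but Hp, where 11.3% of the 11241 genes that passed the UMI minimum were higher. In macrophage-like cells 6 of 6 were higher, against 7.96% of 13057 genes. In neutrophil-like cells Saa3 and Lcn2 were higher among 5 genes that passed the minimum, against 15.1% of 4233 genes. None was at least 2-fold lower, where the share of all genes was 18.5% in monocyte-like, 24.1% in macrophage-like and 10.7% in neutrophil-like cells. Because the genes were chosen from these data, these shares are given for scale only. The median log2 ratio of all genes that passed was -0.20, -0.35 and -0.01 in these classes. Scaling by median-of-ratios size factors added 0.21, 0.30 and 0.08 to each log2 ratio, and changed none of these counts.

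**Figure D2:**
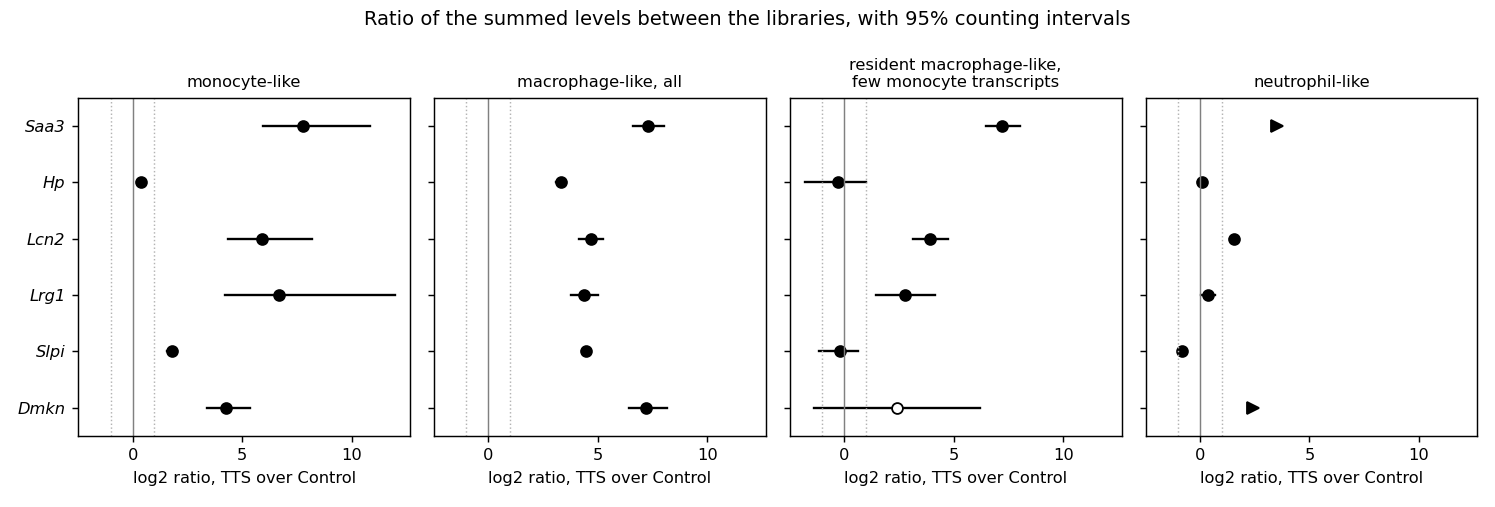
Log2 ratio of TTS over Control for each gene in 4 groups of cells, with 95% counting intervals. Dotted lines mark the 2-fold limits, and the points are ratios without the added 0.5 UMI. Triangles stand for genes with no UMI in Control and set the TTS level against 3 Control counts. The open point and the neutrophil-like Dmkn triangle did not pass the UMI minimum. Hp lies inside the 2-fold limits in monocyte-like cells, neutrophil-like cells and resident macrophage-like cells with few monocyte transcripts.

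The macrophage-like values joined unlike cells, so the subsets were examined. Arg1 macrophage-like cells, which were nearly all from TTS, held 277 CPM Saa3, 192 Hp, 80.5 Lcn2, 44.2 Lrg1, 685 Slpi and 190 Dmkn. The other macrophage-like cells scored highest for macrophage markers and were under the limit for resident markers. Their Arg1 and classical monocyte scores were not limited by the gate, so they may hold those transcripts too. They were comparable in number, and each gene was higher in TTS there. Saa3 went from 0.148 to 112 CPM, Hp from 17.2 to 111, Lcn2 from 1.48 to 36.6, Lrg1 from 1.92 to 34.6, Slpi from 25.4 to 274 and Dmkn from 0.444 to 109.

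In resident macrophage-like cells with few monocyte transcripts, 527 in Control and 127 in TTS, the 6 genes parted. This subset was defined after the libraries had been compared. Hp was 8.04 CPM (5.69 to 11.04) in Control against 6.70 CPM (2.46 to 14.6) in TTS, and Slpi was 18.0 CPM (14.4 to 22.2) and 15.6 CPM (8.54 to 26.2). Dmkn had 2 UMIs in each library. These 3 genes, at least 9.96-fold higher over all TTS macrophage-like cells, thus had overlapping intervals or few UMIs in this subset. Over all resident macrophage-like cells, 545 in Control and 183 in TTS, they were higher in TTS. Hp was 13.1 and 50.5 CPM there, Slpi 20.4 and 215 CPM, and Dmkn 1.76 and 35.5 CPM. The 56 TTS resident cells with more monocyte transcripts held 94.0, 413 and 68.5 CPM of these genes. In the subset with few monocyte transcripts Saa3, in contrast, was 3.39 CPM (1.93 to 5.50) and 498 CPM (453 to 546). The Saa3 UMIs were in 11 of the 127 TTS cells, and 1 cell held 202 of the 446. Without that cell the TTS level was 275 CPM (241 to 311). Lcn2 was 4.23 CPM and 63.6 CPM, but 54 of its 57 TTS UMIs were in 1 cell, and without it the level was 3.37 CPM (0.694 to 9.83). Lrg1 was 2.12 CPM (1.01 to 3.89) and 14.5 CPM (7.73 to 24.8), from 10 and 13 UMIs. By the fold rule 3 of 5 genes that passed the minimum were higher, against 7.29% of 10368 genes, and the call for Lcn2 rested on that single cell.

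Among TTS monocyte-like and Arg1 macrophage-like cells together, 5 of the 6 genes were lowest where the Arg1 marker score was highest. The lowest bin held 1017 cells with a score under 0.2 and the highest 847 cells at 0.6 or more. By the gate, all cells with a score under 0.4 were monocyte-like, as were 440 of 643 cells at 0.4 to 0.6 and 118 of 847 at 0.6 or more. The difference between bins thus repeats in part the difference between the monocyte-like and Arg1 macrophage-like classes. Saa3 went from 930 CPM (909 to 951) to 348 CPM (337 to 360) between these bins, Hp from 821 to 263 CPM, Lcn2 from 353 to 122 CPM and Lrg1 from 211 to 58.1 CPM. Dmkn went from 331 to 214 CPM. Slpi was 817 CPM (798 to 838) in the lowest and 777 CPM (760 to 794) in the highest bin, the smallest relative difference of the 6. Median depth was 7181 UMIs in the lowest and 10058 in the highest bin. The classical monocyte score is part of the gate that forms these bins, and its part in the difference was not tested.

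**Figure D3:**
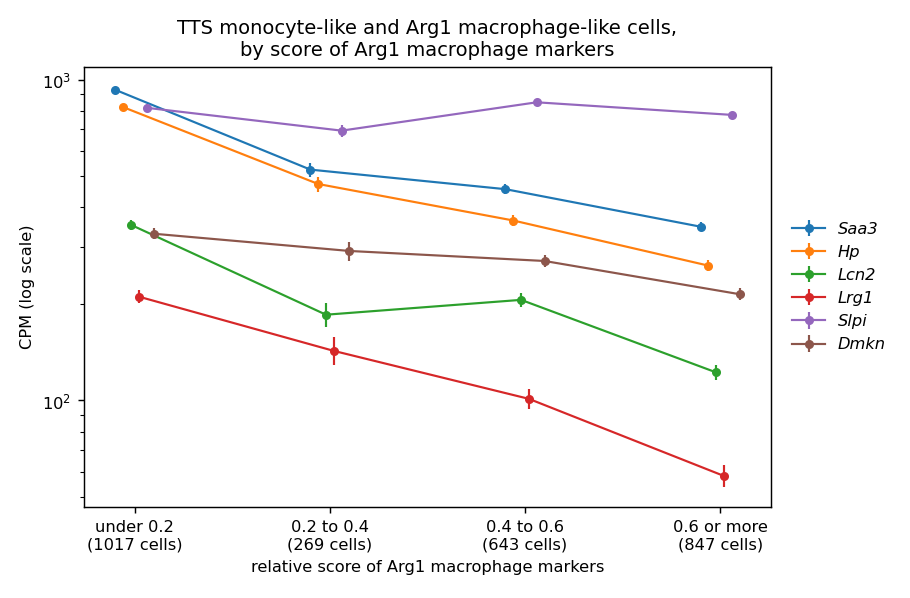
CPM on a log axis of each gene in TTS monocyte-like and Arg1 macrophage-like cells, divided into 4 bins by the relative score of Arg1 macrophage markers, with exact Poisson 95% intervals. Bins under 0.4 hold monocyte-like cells only, while the last bin holds 118 monocyte-like cells of 847. Slpi stays between 694 and 850 CPM over the bins, while each of the other genes is lowest in the last bin.

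Neutrophil-like cells of both libraries held Hp, Lcn2, Lrg1 and Slpi, and few held Saa3. Of 71 TTS cells, 11.3% had a Saa3 UMI unthinned and 4.23% after thinning, and 1 cell held 20 of the 32 UMIs. Without that cell Saa3 was 33.2 CPM (17.1 to 57.9) and did not pass the UMI minimum. TTS neutrophil-like cells also had a median classical monocyte score of 0.18, against 0 in Control. In the 27 TTS cells whose phagocyte scores were under 0.2, Saa3 had 3 UMIs and Dmkn 1. In the same cells Lcn2 was 2736 CPM (2446 to 3052), against 958 CPM (856 to 1069) in 116 Control cells. Lrg1 was 671 CPM (532 to 837) in these TTS cells and 419 CPM (353 to 495) in the Control cells, intervals that did not overlap. The 6 genes summed to 5278 CPM (5055 to 5508) in Control against 5939 CPM (5692 to 6193) in TTS neutrophil-like cells, while in monocyte-like cells the sum was 775 CPM (707 to 848) and 3031 CPM (3005 to 3057).

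In Control, most UMIs of the neutrophil-associated genes came from barcodes with neutrophil markers. Neutrophil-like cells held 37.5% of Lcn2, 31.6% of Lrg1, 28.4% of Slpi and 22.3% of Hp UMIs. Barcodes with both neutrophil and phagocyte markers held another 35.4%, 39.4%, 34.5% and 30.4%. Monocyte-like cells held 0.337% of Lcn2, 0.213% of Lrg1, 3.86% of Slpi and 13.4% of Hp. In TTS the largest share of every gene except Lcn2 was in monocyte-like cells. They held 62.5% of Saa3 (61.8 to 63.1), 55.8% of Hp, 54.5% of Dmkn, 50.5% of Lrg1, 44.8% of Slpi and 38.6% of Lcn2. Barcodes with both neutrophil and phagocyte markers held 42.6% of Lcn2 (41.7 to 43.4) in TTS, from 10.6% of the cells. With barcodes of 2 lineages assigned by their highest score, monocyte-like cells held the largest share of Lcn2 as well, at 49.1%, and neutrophil-like cells held 24.8%. Arg1 macrophage-like cells held 22.4% of Slpi and 20.6% of Dmkn, but 6.63% of Lcn2. Neutrophil-like cells held 6.64% of Lcn2 and 0.158% of Saa3. These shares follow the number of cells in each class as well as the level per cell.

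**Figure D4:**
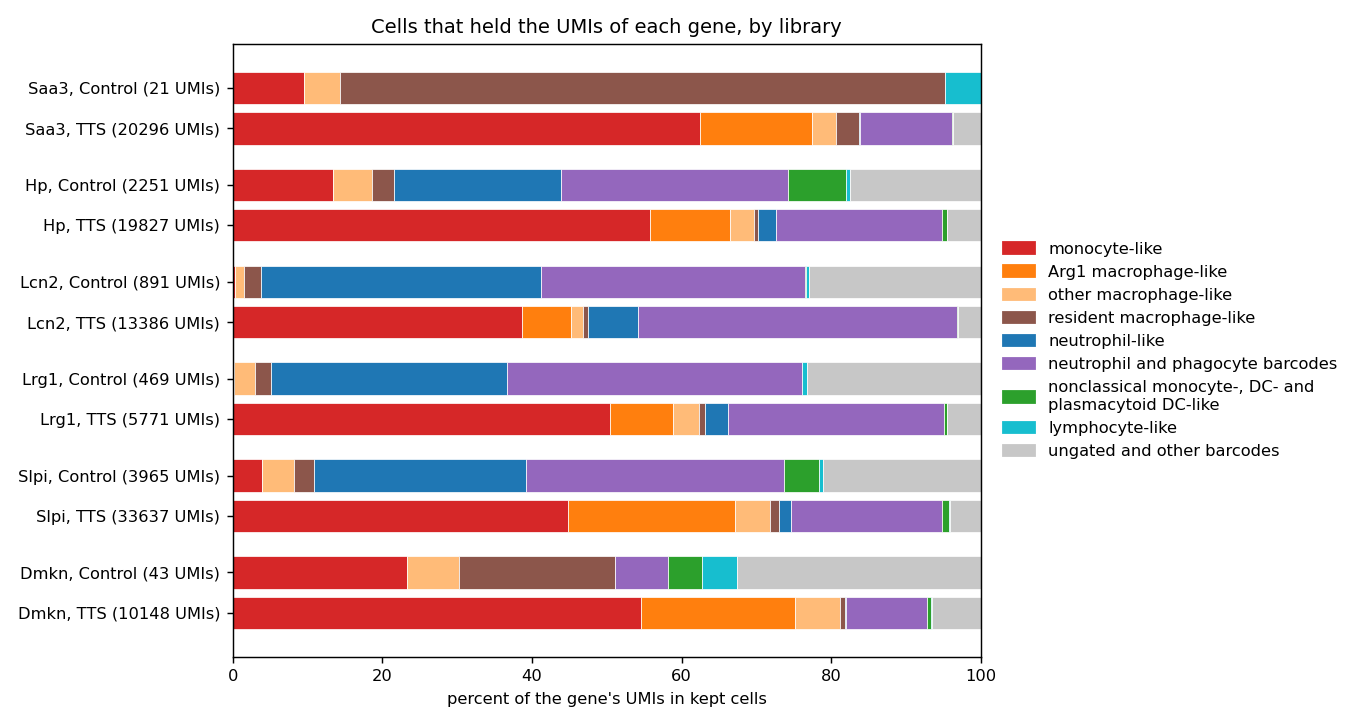
Share of each gene's UMIs that each group of kept cells held, in percent, with 1 bar per gene and library and the gene's UMI total beside it. Monocyte-like cells hold 38.6 to 62.5% of each gene in TTS, and barcodes with neutrophil markers hold most of Lcn2, Lrg1, Slpi and Hp in Control.

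Barcodes with both neutrophil and phagocyte markers contained Saa3 and Dmkn only in TTS in appreciable amounts. Saa3 was 0 UMIs in 154 Control and 310 CPM (298 to 322) in 577 TTS barcodes. This TTS level was 213 times the level that 3 counts would give in Control. Dmkn was 1.45 CPM (0.299 to 4.24) and 136 CPM (128 to 145). Lcn2 was 152 CPM (136 to 170) and 711 CPM (693 to 730), Hp 331 and 549 CPM, Lrg1 89.5 and 208 CPM, and Slpi 661 and 843 CPM. The median depths were 11949 and 12286 UMIs, above those of the neutrophil-like cells at 2729 and 4203. Doublets and single cells that hold both sets of transcripts cannot be told apart here.

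Single TTS monocyte-like cells often held several of the genes. After thinning, 74.4% (72.3 to 76.4) had at least 1, 43.1% (40.8 to 45.4) at least 2, 22.4% at least 3 and 0.380% all 6. Unthinned these shares were 94.7%, 83.2%, 68.1% and 13.7%. In Control monocyte-like cells 6.35% (1.76 to 15.5) had at least 2 after thinning and 50.8% unthinned. Among the 474 TTS monocyte-like cells with a Saa3 UMI, 32.9% (28.7 to 37.3) had Lcn2, against 9.93% (8.39 to 11.6) of the 1370 cells without Saa3. Unthinned the same shares were 59.6% of 888 and 25.9% of 956 cells. For Lrg1 these shares were 25.5% and 9.93%, for Hp 53.6% and 32.8%, and for Slpi 52.3% and 31.2%. Dmkn differed least, at 27.2% (23.3 to 31.5) and 20.4% (18.3 to 22.7). Between Slpi and Dmkn the shares were 22.5% and 22.0% after thinning, with overlapping intervals, but 64.5% and 46.6% unthinned, where depth varies between cells. Neutrophil-like cells had at least 3 genes in 32.5% (24.5 to 41.5) of Control and 52.1% (39.9 to 64.1) of TTS cells, and unthinned in 64.3% and 88.7%. Cells of 1 library are not replicates, and these shares describe the libraries.

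**Figure D5:**
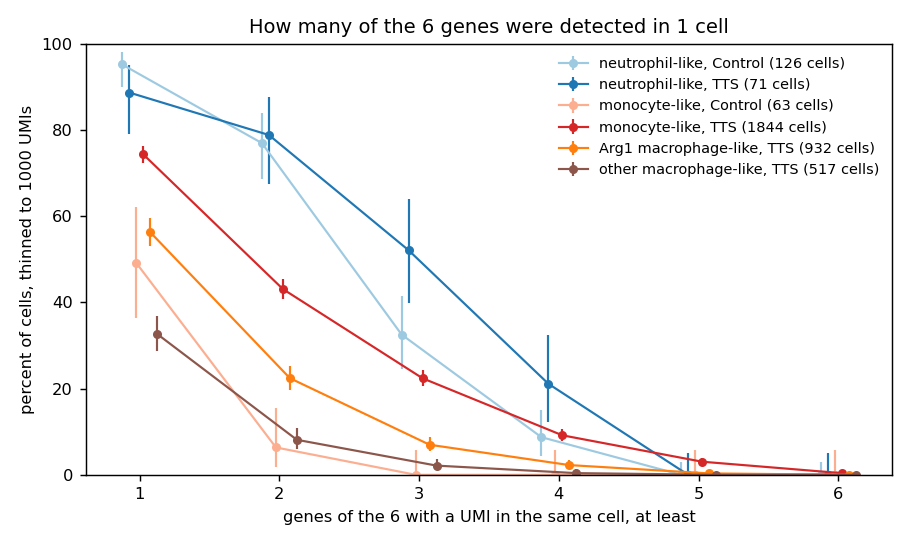
Percent of cells, thinned to 1000 UMIs, in which at least the given number of the 6 genes had a UMI, with Clopper-Pearson 95% intervals. Neutrophil-like cells of both libraries lie highest up to 3 genes. TTS monocyte-like cells lie above Control monocyte-like cells from 1 to 4 genes, and at 5 and 6 genes their intervals overlap.

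Outside these classes, Slpi was found in plasmacytoid DC-like cells. The 19 cells of Control held 113 CPM (70.0 to 173) and the 48 cells of TTS held 446 CPM (375 to 525). Hp was found in nonclassical monocyte-like cells, where 131 cells of Control held 139 CPM (118 to 162) and 38 cells of TTS held 250 CPM (197 to 314). In the same cells Dmkn had no UMI in Control and was 86.7 CPM (56.6 to 127) in TTS, from 26 UMIs in 6 of 38 cells. This TTS level was 32.3 times the level that 3 counts would give in Control. In DC-like cells the 6 genes were between 4.52 and 72.9 CPM in TTS. Lymphocyte-like cells of TTS held 2.53 CPM Saa3, 5.06 Lcn2, 1.27 Lrg1, 15.2 Hp, 15.2 Dmkn and 30.4 Slpi, each from at most 24 UMIs.

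Marker lists of other cell types were summed in the same classes. The 7 mesothelial markers measured summed to 0 UMIs in Control and 4 in TTS monocyte-like cells, with Wt1, Krt19, Lrrn4 and Krt8 at 0. The 4 hepatocyte markers measured summed to 0 and 3 UMIs there, with Apoa1, Ttr and Ahsg at 0. The 8 fibroblast markers summed to 138 and 246 CPM in monocyte-like and 136 and 289 CPM in macrophage-like cells, with Pdgfra and Lum at 0 in TTS in both. In Control monocyte-like cells Dcn, Col1a1, Col1a2, Col3a1, Pdgfra and Lum were at 0. The 6 cardiomyocyte markers summed to 29.6 and 22.8 CPM in monocyte-like and 153 and 52.9 CPM in macrophage-like cells. The 8 endothelial markers summed to 49.4 and 63.9 CPM in monocyte-like and 71.4 and 94.1 CPM in macrophage-like cells. The 5 platelet markers summed to 1.65 and 19.1 CPM in monocyte-like cells, the Control value from 1 UMI. In the resident macrophage-like cells with few monocyte transcripts they summed to 13.8 and 282 CPM, with Gp9, Gp5 and Itga2b at 0 in TTS. In TTS, 1 of 7 fibroblast-like cells held 18 Saa3 UMIs, which made 467 CPM (277 to 738) in that class. Neutrophil markers summed to 459 CPM (407 to 516) in Control against 1381 CPM (1363 to 1398) in TTS monocyte-like cells. In neutrophil-like cells the sum was 109317 and 92602 CPM. Saa3 and Dmkn were lower in TTS neutrophil-like than in TTS monocyte-like cells, and Hp, Lcn2, Lrg1 and Slpi were higher. The part of transcripts from other cell types in the levels of the 6 genes was not tested.

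Genes with a like pattern were sought over 16 profiles, 8 classes in each library, among 5879 genes, by Pearson's r of log2(CPM + 1). The profiles share 2 libraries and the classes of a library share its depth. Nearest to Hp was Fpr2, a formyl peptide receptor that also binds serum amyloid A, at r = 0.97, followed by Pgd and Gm5150. Nearest to Slpi was Clec4d, a C-type lectin receptor, at r = 0.98, followed by Slc7a11 and Ptgs2. Nearest to Lcn2 were Srgn, the granule proteoglycan serglycin, at r = 0.94 and Wfdc21, listed as 1100001G20Rik, at r = 0.93, followed by Il23a. Il23a and Srgn were also among the 3 nearest to Lrg1. Rhov was nearest to Lrg1 at r = 0.94, Mmp19, a matrix metalloproteinase, to Dmkn at r = 0.92, and Cers2, a ceramide synthase, to Saa3 at r = 0.87. Tpi1 and Gapdh, enzymes of glycolysis, came next for Saa3, and Gde1 and Mrpl20 for Dmkn. Among the 6 genes themselves r was highest for Lcn2 with Lrg1, at 0.96, followed by Hp with Slpi at 0.93 and Saa3 with Dmkn at 0.85.

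The rest of the acute-phase program was divided in direction. Of 27 other acute-phase genes listed, 19 were in the files, and 10 passed the UMI minimum in monocyte-like cells. Of these 4 were at least 2-fold higher and 2 lower, with a median log2 ratio of 0.03 beside -0.20 for all genes. Of the 4, Orm2 and Mt2 had no UMI in Control, and Orm2 rested on 30 UMIs in TTS. In macrophage-like cells 4 of 11 were higher and 3 lower, and in neutrophil-like cells 1 of 5 was higher and 1 lower. Over all genes the shares higher and lower were 11.3% and 18.5% in monocyte-like, 7.96% and 24.1% in macrophage-like, and 15.1% and 10.7% in neutrophil-like cells. Il1rn, the IL-1 receptor antagonist, was 110 and 430 CPM in monocyte-like cells and 99.5 and 548 CPM in macrophage-like cells. C3, the central complement component, was 397 and 164 CPM in monocyte-like cells but 13.8 and 74.3 CPM in macrophage-like cells. Mt1, a metallothionein, was 100 and 390 CPM in monocyte-like cells and 942 and 650 CPM in macrophage-like cells. Trf, which encodes transferrin, was 758 and 206 CPM in macrophage-like cells, and 1049 and 708 CPM in the resident cells with few monocyte transcripts. Saa2, Saa4, Orm1 and Orm2 had at most 35 UMIs in any of these classes and library.

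Other secreted defense proteins were measured for 17 of 18 listed genes. In monocyte-like cells 5 of 12 were higher and 2 lower, in macrophage-like cells 5 of 13 and 2, and in neutrophil-like cells 2 of 11 and 0. Over all genes the shares higher and lower were 11.3% and 18.5%, 7.96% and 24.1%, and 15.1% and 10.7%, so the neutrophil-like count higher was near that of all genes. Chil3, a chitinase-like lectin and a classical monocyte marker of the gate, was 1025 and 5580 CPM in monocyte-like cells and 18.4 and 1964 CPM in macrophage-like cells. Lyz2, which encodes lysozyme, was 29986 and 19700 CPM in monocyte-like cells and 2688 and 3974 CPM in neutrophil-like cells. Wfdc21 was 1.65 and 60.6 CPM in monocyte-like cells, and 603 and 993 CPM in neutrophil-like cells. S100a8 and S100a9, the subunits of calprotectin, were 26.3 and 6.58 CPM in Control and 527 and 186 CPM in TTS monocyte-like cells, and in neutrophil-like cells S100a9 was 54039 and 43352 CPM. Both S100 genes are neutrophil markers of the gate.

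Among serine proteases and their inhibitors, 2 of 7 genes that passed were higher in monocyte-like cells, and 3 of 7 were higher and 1 lower in macrophage-like cells. Over all genes 11.3% were higher in monocyte-like cells, and 7.96% were higher and 24.1% lower in macrophage-like cells. Prtn3, the neutrophil protease proteinase 3, was 16.5 and 42.3 CPM in monocyte-like cells. Serpinb2, an inhibitor of plasminogen activators, was 9.87 and 42.2 CPM there, and 1.51 and 33.9 CPM in macrophage-like cells. Serpinb6a, which inhibits cathepsin G, was 172 and 64.1 CPM in macrophage-like cells. Elane, the elastase that Slpi inhibits, had at most 2 UMIs in any of the 3 classes in either library.

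Of 12 receptors and partners of the 6 proteins, 11 passed in monocyte-like cells, of which 2 were higher and 4 lower. In macrophage-like cells 2 of 12 were higher and 5 lower, in neutrophil-like cells 3 of 8 and 0, and in the resident cells with few monocyte transcripts 1 of 11 and 0. Among all genes, too, more were lower than higher in monocyte-like and macrophage-like cells, by the shares given above. In neutrophil-like cells 15.1% of all genes were higher, and in those resident cells 7.29%. The share of all genes lower in the resident cells is not given here. Cd163, the haptoglobin-hemoglobin receptor, was 302 and 102 CPM in macrophage-like cells but 607 and 963 CPM in the resident cells with few monocyte transcripts. Lrp1, an endocytic receptor, was 221 and 286 CPM in monocyte-like and 187 and 313 CPM in macrophage-like cells. Cybb, the catalytic subunit of the phagocyte NADPH oxidase, was 1884 and 912 CPM in monocyte-like but 180 and 542 CPM in neutrophil-like cells. Tgfbr1 and Tgfbr2 form the TGF-β receptor, and Tgfbr1 was 147 and 47.4 CPM in macrophage-like cells. Tgfbr2 was 206 and 55.1 CPM in macrophage-like cells and 244 and 156 CPM in those resident cells. Tlr2, a receptor for serum amyloid A, was 449 and 432 CPM in monocyte-like cells. Fpr1 had no UMI in Control and was 21.3 CPM in TTS monocyte-like cells, 4.31 times the level that 3 counts would give in Control.

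Of 19 inducers and transcription factors, 18 passed in monocyte-like and macrophage-like cells and 16 in neutrophil-like cells. The numbers higher and lower were 4 and 2, 6 and 1, and 5 and 0. Over all genes the shares were 11.3% and 18.5%, 7.96% and 24.1%, and 15.1% and 10.7%. Il1b, a main inducer of acute-phase genes, was 5505 and 11990 CPM in monocyte-like cells and 23015 and 22472 CPM in neutrophil-like cells. Il6 was 257 and 132 CPM in monocyte-like cells, 38.1 and 88.9 CPM in macrophage-like cells and 22.5 and 169 CPM in neutrophil-like cells. Tnf was 813 and 1330 CPM in monocyte-like, 618 and 1612 CPM in macrophage-like and 338 and 1554 CPM in neutrophil-like cells. Osm, a cytokine of the Il6 family, was 189 and 405 CPM in monocyte-like and 67.5 and 440 CPM in macrophage-like cells. Cebpb was 3443 and 2747 CPM in monocyte-like cells and 1353 and 2627 CPM in macrophage-like cells. Nfkbiz, a regulator of NF-κB target genes that include Lcn2, was 1491 and 1244 CPM in monocyte-like cells and 1845 and 2564 CPM in neutrophil-like cells. Cebpd, named after its values were seen, was 258 and 113 CPM in monocyte-like cells. In the resident cells with few monocyte transcripts none of 16 was at least 2-fold higher, where 7.29% of all genes were higher.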

How the data were processed

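CD45+ cells from control and ISO-treated (TTS) hearts were profiled by scRNA-Seq with 10x Genomics 3′ chemistry. The deposited values are raw UMI counts per gene and barcode, which the authors made with UMI-tools 1.0.0, STAR 2.7.3a and featureCounts 1.6.4 on mm10, per the submitters' processing notes. The gene annotation is not given in the sources used here. Gene positions were read from GENCODE release vM21 and upstream sequences from RefSeq (GRCm38.p6), where 5 of 6 genes matched.

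Barcodes were kept where the gene number lay between 500 and 6000 and mitochondrial UMIs made up less than 25%. A marker score was the mean log count per 10000 UMIs over the markers of a cell type, set to 0 unless 3 markers were detected, and divided by the mean of the 100 highest cells. The phagocyte score is the highest of the monocyte, macrophage and dendritic cell scores. Barcodes over the limit for more than 1 lineage were set aside in place of a doublet caller. UMIs were summed per class and library, and log2 ratios had 0.5 UMI added to each sum. With 1 library per group no test was made. The genes and lists were chosen with earlier results of these data known. Named genes were the 6 genes, up to 4 genes per list with the highest CPM and up to 3 with the largest log2 ratio among those with at least 50 CPM, and the 3 genes most like each of the 6. The lists are other acute-phase proteins, other secreted defense proteins, serine proteases and inhibitors, receptors and partners, and inducers and transcription factors. Of listed genes, Saa2, Saa4, Orm1, Orm2, Elane, Fpr1 and Cebpd were also named, after their values were seen. Poisson counts were simulated from the sums of Control macrophage-like cells, over 13472 genes. In them 200 genes with at least 50 UMIs were changed 4-fold, up or down. All 200 were called in their direction, and 126 of 13272 unchanged genes passed the fold limit. These counts held no variation between mice, cells or gates, so error from those sources was not tested. Alternatives covered scaling, cell filters, marker limits, doublets, free RNA and thinning. Python 3.11.15, numpy 2.4.6, scipy 1.17.1, pandas 2.3.3 and matplotlib 3.10.9 were used.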

Additional observations from a re-analysis of the deposited data

Results flagged for a closer look

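Slpi differed in direction between classes. Its log2 ratio of TTS over Control was -0.83 in neutrophil-like cells and 1.78 in monocyte-like cells, and the difference between these ratios was not tested, as there was 1 library per group.

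Barcodes outside the cell filters, 286 in Control and 77 in TTS, were used in no comparison and also held the 6 genes. In TTS they held 199 CPM Saa3, 266 CPM Hp, 240 CPM Lcn2, 87.5 CPM Lrg1, 594 CPM Slpi and 99.9 CPM Dmkn, each above the Control value. In Control Saa3 had no UMI and Dmkn 8 UMIs, and Hp, Lcn2, Lrg1 and Slpi were 59.3, 33.2, 11.3 and 96.8 CPM.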

How the results depend on the processing

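No paired analysis was possible because each group has 1 library, and for the same reason no replicate could be left out. Of 94 recomputed counts of genes at least 2-fold higher or lower, 89 stayed within 1.5 times the reported count. Of 282 log2 ratios, 49 moved beyond their counting interval and 2 reversed, and 9 of 60 counts over the other gene lists, 29 of 48 levels, 31 of 36 shares of cells and 18 of 18 shares of a gene's UMIs moved. The number higher in neutrophil-like cells was 1 in place of 2 with a minimum of 50 UMIs, with cells thinned to 1000 UMIs, without the barcode with most UMIs of the gene, and in cells with a phagocyte score under 0.2. In each of these Saa3 was the gene lost. In resident macrophage-like cells with few monocyte transcripts, 3 genes were higher in place of 6, and the log2 ratios of Hp and Slpi turned to -0.17 and -0.16. These 2 subsets, the lymphocyte-like background, the limit of 0.3, the totals without Gm26924 and the left-out barcode were chosen after seeing the data. Over 15 settings, these included but for the 2 subsets, log2 ratios in monocyte-like cells ran from 6.75 to 9.75 for Saa3, 0.33 to 0.64 for Hp, 5.23 to 7.38 for Lcn2, 4.62 to 7.64 for Lrg1, 1.75 to 2.01 for Slpi and 3.12 to 4.86 for Dmkn. In macrophage-like cells they ran from 6.54 to 10.05, 2.26 to 4.14, 3.07 to 5.72, 2.76 to 5.52, 2.77 to 5.38 and 6.65 to 8.74. In neutrophil-like cells Slpi ran from -0.93 to -0.66 and Hp from -0.11 to 0.25. Where barcodes of 2 lineages were kept by their highest score, monocyte-like cells held 49.1 to 70.8% of each gene's TTS UMIs in place of 38.6 to 62.5%, and neutrophil-like cells held 24.8% of Lcn2 in place of 6.64% and 8.37% of Slpi in place of 1.73%. With 63 Control monocyte-like and 71 TTS neutrophil-like cells, low levels there rest on few UMIs.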
